A study of Mus musculus with 24 samples.

Results

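Chil3, Arg1, Mrc1, Retnla and Cd163, the genes most often used to mark alternatively activated macrophages in mice, were described in whole pancreas of mice with 2 intact copies of Nr5a2 or with 1. The 5 genes were found by name among the 36806 genes of the deposited expression table, where Chil3 is written CHI3L3. Their identifiers there are ENSMUSG00000040809 (Chil3), ENSMUSG00000019987 (Arg1), ENSMUSG00000026712 (Mrc1), ENSMUSG00000061100 (Retnla) and ENSMUSG00000008845 (Cd163). They were selected on their levels in these same libraries, that is, on the FPKM of all 8 groups, so their values are a description and carry no p. RNA sequencing of polyadenylated RNA was done on C57BL mice with the Nr5a2 genotype +/+ (WT) or +/- (HET). Nr5a2 is a nuclear receptor that acts in the enzyme-secreting acinar cells of the pancreas. Acute pancreatitis was induced with caerulein, a cholecystokinin analog, in 7 hourly intraperitoneal injections of 50 ug/kg, and controls had saline. Tissue was taken at 8, 24 or 48 h counted from the first of these injections, and each of the 8 groups held 3 animals, 24 libraries in all. The sources used here do not give age or sex, nor which stretch of Nr5a2 the altered allele lacks or in which cells. Since RNA came from whole tissue, fewer cells of a type and less RNA per cell cannot be told apart.

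Interleukin 4 and interleukin 13 act through receptors that hold the chain Il4ra and activate the transcription factor Stat6, and macrophages under these signals take on the state called alternative activation, known from helminth infection, allergy and tissue repair. In that state mouse macrophages secrete the chitinase-like protein Chil3 (Ym1) and the resistin-like protein Retnla (Fizz1), make the cytosolic enzyme Arg1, which splits arginine into ornithine and urea, and carry the mannose receptor Mrc1 (CD206). Cd163, the scavenger receptor for haemoglobin bound to haptoglobin, marks tissue-resident macrophages. None of these genes is restricted to such macrophages: Chil3 is also made by neutrophils and monocytes, and Retnla by adipose tissue and airway epithelium.

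Chil3 and Retnla each have a close paralog beside them in the genome, and the first 250 bases upstream of the annotated starts of both pairs are shown because the genes of each pair had different levels in these libraries. Capitals mark matches to the STAT6-type motif, in which TTC and GAA are separated by 4 bases, or to the general STAT motif TTCNNNGAA, both of which read the same on either strand. The sequences are from RefSeq on build GRCm38.p6 and run 5′ to 3′ along the gene, at chr3:106167565-106167814 on the minus strand for Chil3, chr3:106219480-106219729 on the minus strand for Chil4, chr16:48842359-48842608 on the plus strand for Retnla and chr16:48872358-48872607 on the plus strand for Retnlg.
Chil3: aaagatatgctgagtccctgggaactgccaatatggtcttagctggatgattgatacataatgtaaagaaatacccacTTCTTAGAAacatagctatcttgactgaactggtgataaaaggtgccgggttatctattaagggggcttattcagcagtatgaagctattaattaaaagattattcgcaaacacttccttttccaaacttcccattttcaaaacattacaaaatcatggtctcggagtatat
Chil4: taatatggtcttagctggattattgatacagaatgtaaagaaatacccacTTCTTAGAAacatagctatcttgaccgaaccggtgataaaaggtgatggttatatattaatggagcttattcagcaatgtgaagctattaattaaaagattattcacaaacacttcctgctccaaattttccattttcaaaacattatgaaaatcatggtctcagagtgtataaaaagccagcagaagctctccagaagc
Retnla: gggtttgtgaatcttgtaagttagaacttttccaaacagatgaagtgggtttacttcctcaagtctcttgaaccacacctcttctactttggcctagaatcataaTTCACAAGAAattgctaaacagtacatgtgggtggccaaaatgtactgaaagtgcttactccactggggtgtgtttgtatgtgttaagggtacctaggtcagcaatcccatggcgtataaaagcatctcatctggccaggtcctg
Retnlg: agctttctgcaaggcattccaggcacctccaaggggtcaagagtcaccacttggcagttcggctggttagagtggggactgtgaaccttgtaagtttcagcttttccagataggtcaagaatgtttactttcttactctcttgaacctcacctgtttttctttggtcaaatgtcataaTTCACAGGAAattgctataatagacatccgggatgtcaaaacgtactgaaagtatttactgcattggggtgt

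The window searched ran from 250 bases before to 50 bases after each start. Chil3 held TTCTTAGAA at -172 and Chil4 the same bases at -200 from the start, a match to TTCNNNGAA, and their windows were identical at 92.6% of 271 aligned bases. These positions count from the annotated starts, and TATAAA, found in 13.6% of all RefSeq promoter windows, lay at -3 in Chil3 and -31 in Chil4. Retnla held TTCACAAGAA at -145 and Retnlg TTCACAGGAA at -72, both matches to the STAT6-type motif, with 79.1% identity over 225 aligned bases. Of all 32851 RefSeq promoter windows, 6.95% held the STAT6-type motif and 8.30% held TTCNNNGAA. The windows of Mrc1 and Cd163 held neither motif. Arg1 had no entry among the RefSeq promoters, so its promoter was not searched. Within transcripts, 34.3% of the 40-base windows of Chil3 also occurred in other genes, 22.3% in Chil4. For Retnla the shared part was 2.32%, for Cd163 0.291%, and for Arg1 and Mrc1 it was 0, so of the 5 genes Chil3 is the one whose reads the authors' counting could most often have divided with a relative. The other gene of that pair had hardly any signal: Chil4 was at most 0.448 FPKM in the 24 libraries and 0 in every library of WT saline, WT 8 h, WT 48 h, HET saline and HET 8 h.

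Levels are in FPKM as the authors deposited them, that is, fragments scaled to transcript length and library size, and the sequencing depth behind them is unknown. Differences are between group means of log2(FPKM + 1), which understates the change of low genes, and are given ± SE. A gene passed the test at an adjusted p of 0.05 over all genes with limma, and "rose" and "fell" are used of such genes. Nr5a2 was 12.6, 9.26 and 10.2 FPKM in WT saline and 9.09, 8.01 and 8.79 in HET saline (-0.27 ± 0.19). It did not pass the test in any condition, and the genotypes' ranges overlapped at 24 h and 48 h. Saline and 24 h libraries were made under an earlier library guide and 8 h and 48 h libraries under a later one, so a change from saline to 8 h or 48 h cannot be told apart from the change of guide (WT saline replicate 3 stands in neither of the lists of library names). Genes of acinar secretion took 42.9 to 48.2% of all FPKM in WT 24 h libraries and 25.2 to 29.1% in HET 24 h libraries. The shares use the values as listed, in which some acinar genes are 0 in a whole group. The acinar gene Pnlip, for example, was 0 in every WT 24 h library and 4670 to 5470 FPKM in HET 24 h. HET 48 h replicate 3 had a secretory share of 4.6%, against 20.7% and 34.4% in the other replicates, and was the highest of its group in Arg1, Mrc1 and Cd163. WT 48 h replicate 2 stood apart from its group in cell markers: the FPKM of 19 macrophage markers summed to 1284 in it, against 374 and 790 in the other replicates, and those of 5 B cell markers to 33.1, against 0.49 and 5.13. Other libraries were also high in B cell markers. Cd79a was 16.4 FPKM in WT 24 h replicate 1, against 8.26 and 0.845 in the other replicates. It was 9.47 in HET saline replicate 2, against 2.41 and 4.77, and 5.06 in HET 48 h replicate 2, against 0.189 and 0.184. WT 24 h replicate 1 was also the highest of its group in Chil3 and Arg1.

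Chil3, a secreted lectin-like protein of activated macrophages, had the widest range of the 5 genes. In WT it measured 0.966, 1.25 and 0.572 FPKM in saline, 7.69, 45.4 and 3.57 at 8 h, 70.2, 5.98 and 33.0 at 24 h, and 6.36, 5.06 and 5.73 at 48 h. In HET it measured 0.68, 2.97 and 7.28 in saline, 40.7, 44.4 and 42.7 at 8 h, 280, 147 and 139 at 24 h, and 10.6, 34.2 and 15.3 at 48 h. All 3 HET 24 h libraries lay above every other library of the series, and within WT 1 library at 8 h was high and 1 at 24 h low. Group means ran from 0.929 ± 0.34 in WT saline to 188.7 ± 79.2 in HET 24 h (SD, n = 3), a ratio of 203. HET 24 h was the only group whose range lay clear of the next group in that order. In saline the genotype difference was 1.00 ± 0.80. After caerulein it was 1.83 ± 0.80 (8 h), 2.81 ± 0.80 (24 h) and 1.49 ± 0.80 (48 h). The ranges of the genotypes overlapped in saline and at 8 h and lay apart at 24 h and 48 h. The value at 8 h was 2.79 without WT 8 h replicate 2 and 1.12 without replicate 3, and that at 24 h was 1.87 without WT 24 h replicate 2 and 3.55 without replicate 1.

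Retnla, a secreted resistin-like protein, ran in another order. It measured 12.1, 16.2 and 16.9 FPKM in WT saline, 16, 15.9 and 16.3 at 8 h, 17.3, 30.4 and 8.31 at 24 h, and 3.91, 28.8 and 15.5 at 48 h. In HET it measured 47.5, 54.4 and 59.2 in saline, 18.2, 24.5 and 19 at 8 h, 4.46, 4.93 and 10.5 at 24 h, and 2.17, 10.6 and 1.51 at 48 h. The 3 HET saline libraries were the highest of all 24, and HET 24 h and 48 h held 4 of the 5 lowest. WT groups had means of 15.1 to 18.7 FPKM at all times. In HET the mean was 53.7 ± 5.88 in saline and 6.63 ± 3.36 at 24 h. The genotype difference was 1.78 ± 0.57 in saline and 0.33 ± 0.57, -1.28 ± 0.57 and -1.57 ± 0.57 at the times after caerulein, so the HET mean lay above WT in saline and at 8 h and below it at 24 h and 48 h. The ranges lay apart in saline and at 8 h and overlapped at 24 h and 48 h. From saline to 24 h the difference was 0.14 ± 0.57 in WT and -2.92 ± 0.57 in HET, and the sign in WT turned without WT saline replicate 1 (-0.0047) or WT 24 h replicate 2 (-0.29).

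Arg1, the arginine-splitting enzyme, measured 1.33, 2.04 and 4.05 FPKM in WT saline, 0.502, 0.99 and 0.571 at 8 h, 35.1, 5.86 and 11.7 at 24 h, and 0.578, 13.7 and 1.09 at 48 h. In HET it measured 1.66, 4.44 and 26.1 in saline, 2.32, 4.13 and 7.28 at 8 h, 60.2, 60.5 and 58.8 at 24 h, and 4.88, 12.4 and 40.6 at 48 h. The HET 24 h libraries were nearly alike and the highest of the series, while 1 HET saline library stood far above its group. The HET 24 h mean was 59.8 ± 0.907 and the WT 24 h mean 17.6 ± 15.5 (SD, n = 3). The WT 8 h mean of 0.688 ± 0.264 was the lowest, below WT saline at 2.47 ± 1.41 with no overlap. That difference was -0.98 ± 0.89, and the library guide differed as well, so time and guide cannot be told apart. HET minus WT was 1.15 ± 0.89 in saline and, in order of time after caerulein, 1.64 ± 0.89, 2.05 ± 0.89 and 2.03 ± 0.89. The ranges lay apart at 8 h and 24 h and overlapped in saline and at 48 h. Without HET saline replicate 3 the saline difference was 0.21 ± 0.88. Without WT 48 h replicate 2, which was high in macrophage and B cell markers, the 48 h difference was 3.03 ± 0.86. Without HET 48 h replicate 3, the library with a secretory share of 4.6%, it was 1.28 ± 0.94.

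Mrc1, the mannose receptor, measured 3.83, 3.49 and 3.16 FPKM in WT saline, 7.23, 4.42 and 6.34 at 8 h, 8.12, 9.81 and 7 at 24 h, and 5.52, 21.8 and 9.31 at 48 h. In HET it measured 3.18, 7.61 and 7.32 in saline, 5.97, 7.89 and 6.91 at 8 h, 16.5, 19.1 and 21.5 at 24 h, and 24.4, 31.0 and 42.1 at 48 h. Its highest group was HET 48 h, with all 3 libraries above every other library, where that of Chil3 and Arg1 was HET 24 h. Libraries of 24 h and 48 h were made under different guides, so time and guide cannot be told apart here. The HET 48 h mean was 32.5 ± 8.94 and the WT 48 h mean 12.2 ± 8.52 (SD, n = 3), of which replicate 2 alone reached 21.8. HET minus WT was 0.58 ± 0.34 in saline and 0.19 ± 0.34 at 8 h, then 1.11 ± 0.34 at 24 h and 1.5 ± 0.34 at 48 h, with ranges apart at 24 h and 48 h. Without WT 48 h replicate 2 the 48 h difference was 2.0 ± 0.29, and without WT 48 h replicate 1 it was 1.09 ± 0.32.

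Cd163, the haemoglobin scavenger receptor, was the lowest of the 5 genes at its peak. It measured 0.98, 1.24 and 1.14 FPKM in WT saline, 3.7, 1.8 and 2.3 at 8 h, 2.92, 3.16 and 1.66 at 24 h, and 1.53, 5.98 and 2.98 at 48 h. In HET it measured 1.37, 4.23 and 2.66 in saline, 2.37, 4.89 and 3.66 at 8 h, 2.58, 3.07 and 4.59 at 24 h, and 3.79, 5.15 and 9.7 at 48 h. WT saline was the 1 group clear of its neighbour in the order of means, and the other 7 groups overlapped along that order. Group means ran from 1.12 ± 0.131 to 6.21 ± 3.1 FPKM. The genotype difference was 0.75 ± 0.36 in saline, where the ranges lay apart, 0.36 ± 0.36 at 8 h, 0.30 ± 0.36 at 24 h and 0.72 ± 0.36 at 48 h, where they overlapped. With each library left out in turn it ran from 0.48 to 1.05 in saline and 0.17 to 0.58 at 8 h. At 24 h it then ran from 0.10 to 0.44, and at 48 h from 0.37 to 1.10.

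**Figure D1:**
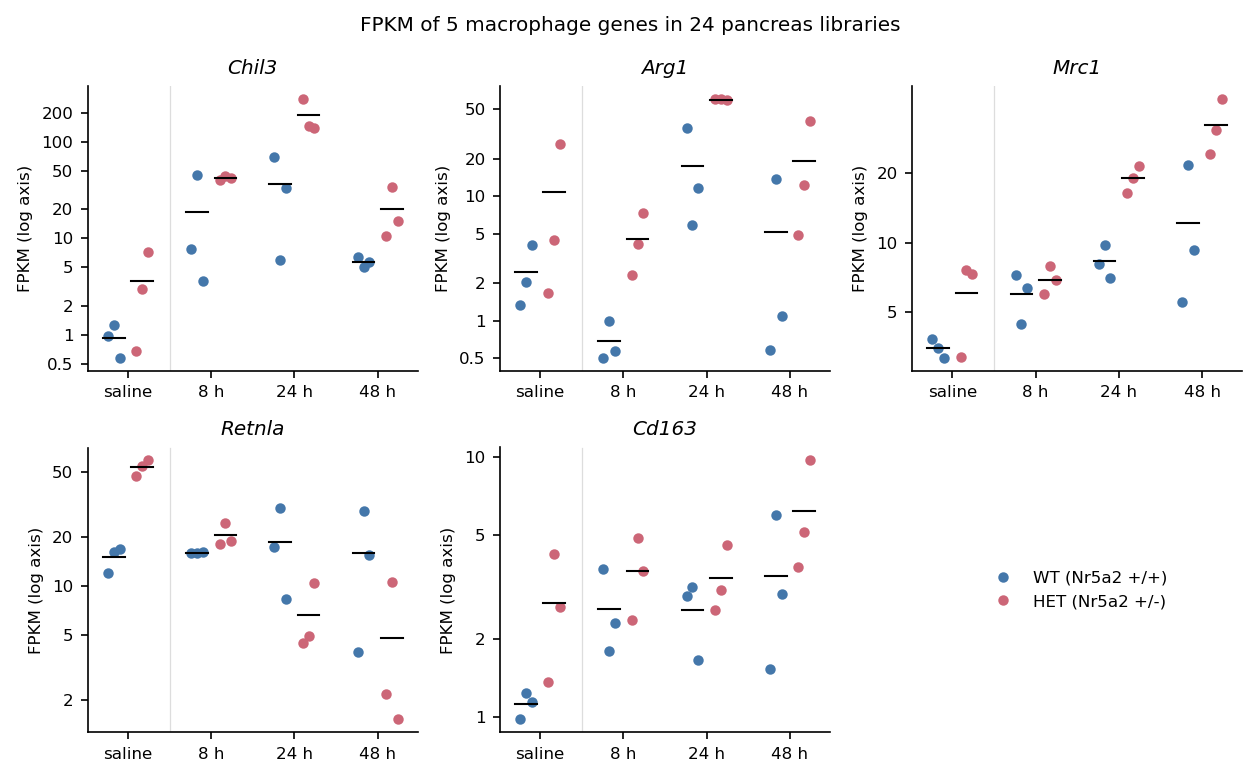
FPKM of the 5 genes on a log axis, 1 point per library and a black bar at each group mean, for WT and HET mice given saline or killed 8, 24 or 48 h after the first caerulein injection. Chil3 and Arg1 are highest at 24 h in HET (means 188.7 and 59.8 FPKM), Mrc1 at 48 h in HET (32.5), and Retnla in HET saline (53.7).

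The question of genotype was asked in each condition. All 20 genotype differences of the 5 genes kept their sign under the 6 other settings tried and with each library left out in turn. In saline none of the 5 genes passed the test, which 2.36% of all genes tested did. At 8 h none passed, against 0.218% of all genes. At 24 h Chil3 passed, against 6.5% of all genes, and at 48 h Mrc1, against 12.2%. Since the genes were chosen with these values known, nothing is read from these counts. Ranges of the genotypes lay apart for Retnla and Cd163 in saline, for Retnla and Arg1 at 8 h, for Chil3, Arg1 and Mrc1 at 24 h, and for Chil3 and Mrc1 at 48 h. In each of these HET was higher, and ranges lay apart for 17.4%, 14.9%, 24.8% and 34.2% of all genes in these conditions. The place of Chil3 past the threshold at 24 h was lost when any of 16 of the 24 libraries was left out, and that of Mrc1 at 48 h without WT 48 h replicate 1 or HET 48 h replicate 3.

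**Figure D2:**
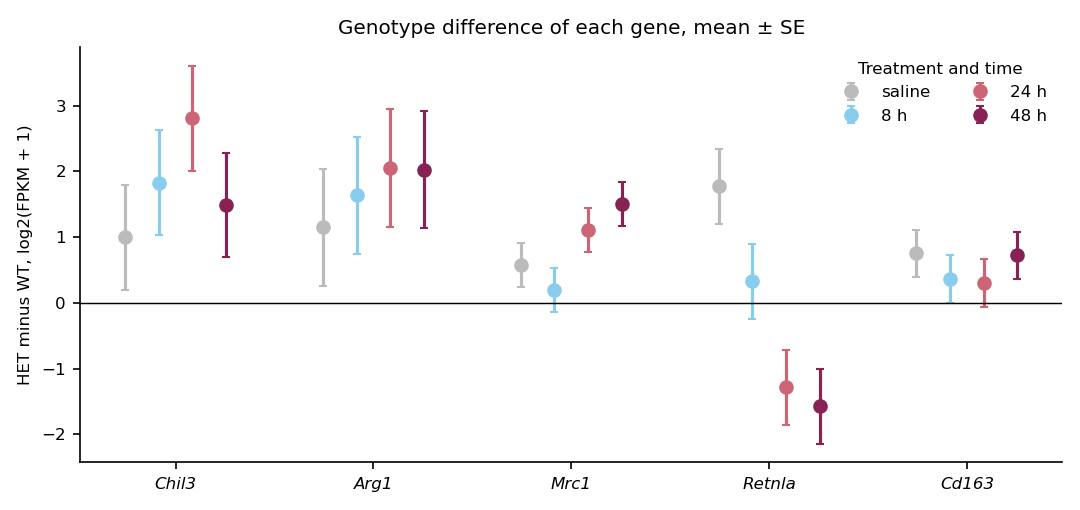
Difference between HET and WT group means of log2(FPKM + 1) for each gene, with its SE as bars, in saline and at 8, 24 and 48 h. Chil3, Arg1, Mrc1 and Cd163 lie above 0 in all 4 conditions, while Retnla passes from 1.78 in saline to -1.57 at 48 h.

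Time was compared within each library guide. From saline to 24 h the difference in WT was 3.75 ± 0.80 for Chil3, 2.15 ± 0.89 for Arg1, 1.04 ± 0.34 for Mrc1 and 0.73 ± 0.36 for Cd163. In HET it was 5.56 ± 0.80 for Chil3, 3.05 ± 0.89 for Arg1, 1.57 ± 0.34 for Mrc1 and 0.28 ± 0.36 for Cd163, which was -0.01 without HET saline replicate 1. Given as a description, with nothing read from them, the genes past the threshold were Chil3 and Mrc1 in WT, where 39.2% of all genes passed, and Chil3, Arg1, Mrc1 and, downward, Retnla in HET, where 43.8% did. Mrc1 lost this in WT without WT saline replicate 3 or WT 24 h replicate 2, and Arg1 in HET without HET saline replicate 1. With FPKM scaled to the total without secretory genes, under which the median of all genes was 0.68 in WT and 0.84 in HET against 0.05 and 0.06 without it, Mrc1 was 1.8 higher in WT and 2.55 in HET, and Retnla -1.91 in HET. The 2 comparisons share no library, and the difference between them (HET change minus WT change) was 1.81 ± 1.13 for Chil3, 0.90 ± 1.26 for Arg1, 0.53 ± 0.48 for Mrc1, -0.45 ± 0.51 for Cd163 and -3.06 ± 0.81 for Retnla. None of the 5 passed that test of the difference, which 2.31% of all genes did. Ranges of saline and 24 h lay apart for Chil3, Arg1, Mrc1 and Cd163 in WT (43.9% of all genes) and for Chil3, Arg1, Mrc1 and Retnla in HET (49.2%). From 8 h to 48 h none passed in WT, where 50% of all genes did. In HET, where 52% passed, Mrc1 was higher at 48 h (2.05 ± 0.34) and Retnla lower (-2.24 ± 0.57), the latter no longer past the threshold under that scaling. The difference between the genotypes in this change passed for none of the 5, against 0.723% of all genes. The difference of Chil3 was -1.21 ± 0.80 in HET, and the ranges of 8 h and 48 h lay apart for Chil3, Mrc1 and Retnla in HET (66.4% of all genes) and for none of the 5 in WT (57.9%). Against saline, with the guide differing as well, Chil3 was 2.68 ± 0.80 higher at 8 h in WT and 3.52 ± 0.80 higher in HET, while Arg1 differed by -0.98 ± 0.89 and -0.49 ± 0.89, the latter turning to 0.45 without HET saline replicate 3.

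General markers of macrophages moved in the same libraries. The 19 macrophage markers, among them Cd68, Adgre1 (F4/80) and Csf1r, were all detected, and none was at 0 in a whole group. Their FPKM summed to 110 to 276 in WT saline, 339 to 744 in HET saline, 787 to 1378 in WT 24 h, 1156 to 1746 in HET 24 h, 374 to 1284 in WT 48 h and 1206 to 2120 in HET 48 h. In saline 2 of the 19 were higher in HET, the signalling adaptor Tyrobp (1.91 ± 0.37, adjusted p = 0.0115) and the complement gene C1qa (1.52 ± 0.39, adjusted p = 0.0463), the latter lost in 15 of 24 fits that left out 1 library. At 24 h Cd14 was higher in HET (1.59 ± 0.45, adjusted p = 0.0388), the single marker of the 19 that passed, a call lost in 5 of 24 fits that left out 1 library. At 48 h 11 of 19 were higher in HET, among them the Fc receptor Fcgr1 (1.98 ± 0.47, adjusted p = 0.0106), lost without WT 48 h replicate 1 or HET 48 h replicate 3. From saline to 24 h 18 of the 19 rose in WT and 14 in HET. Between genotypes the shares of all genes that passed were 2.36% in saline, 6.5% at 24 h and 12.2% at 48 h. From saline to 24 h they were 39.2% in WT and 43.8% in HET.

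Each gene was therefore also set against these markers, as its log2(FPKM + 1) minus the mean of the 19 in the same library. The share of all genes with ranges apart on that scale was not computed, so nothing is read from such gaps. On that scale Chil3 was 0.809, -1.96 and 0.541 in WT 24 h and 2.51, 2.01 and 1.64 in HET 24 h, a difference of 2.26 with ranges apart. Arg1 was -0.171, -1.99 and -0.879 in WT 24 h and 0.315, 0.744 and 0.411 in HET 24 h, a difference of 1.5, again with ranges apart. The mean of the markers itself differed by 1.12 in saline and 0.72 at 8 h, with ranges apart. It differed by 0.55 at 24 h and 1.22 at 48 h, with overlapping ranges. In saline Chil3 and Arg1 differed by -0.12 and 0.03 relative to the markers, with overlapping ranges. At 8 h Chil3 differed by 1.11, with overlapping ranges, and Arg1 by 0.91, with ranges apart. For Mrc1 the difference on this scale was -0.54 (saline), -0.53 (8 h), 0.56 (24 h) and 0.28 (48 h), with overlapping ranges in all 4. For Cd163 the difference was below 0 in all 4 conditions, from -0.25 to -0.50, with overlapping ranges, and at 24 h it was -0.01 when Cd68, Adgre1 and Csf1r alone gave the mean. Retnla was 0.65 higher in HET in saline with overlapping ranges. Its difference was -0.40 at 8 h, where the difference in level itself was 0.33, and -1.83 at 24 h and -2.79 at 48 h, with ranges apart at these 3 times. At 48 h Chil3 and Arg1 differed by 0.27 and 0.80, with overlapping ranges. From saline to 24 h the difference of Mrc1 relative to the markers was -1.12 in WT and -0.02 in HET, and that of Cd163 -1.43 and -1.31. For Chil3 it was 1.58 in WT and 3.97 in HET, for Arg1 -0.01 and 1.46, and for Retnla -2.03 and -4.51. Ranges overlapped for Arg1 in both genotypes, for Chil3 in WT and for Mrc1 in HET, and lay apart in the other cases.

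**Figure D3:**
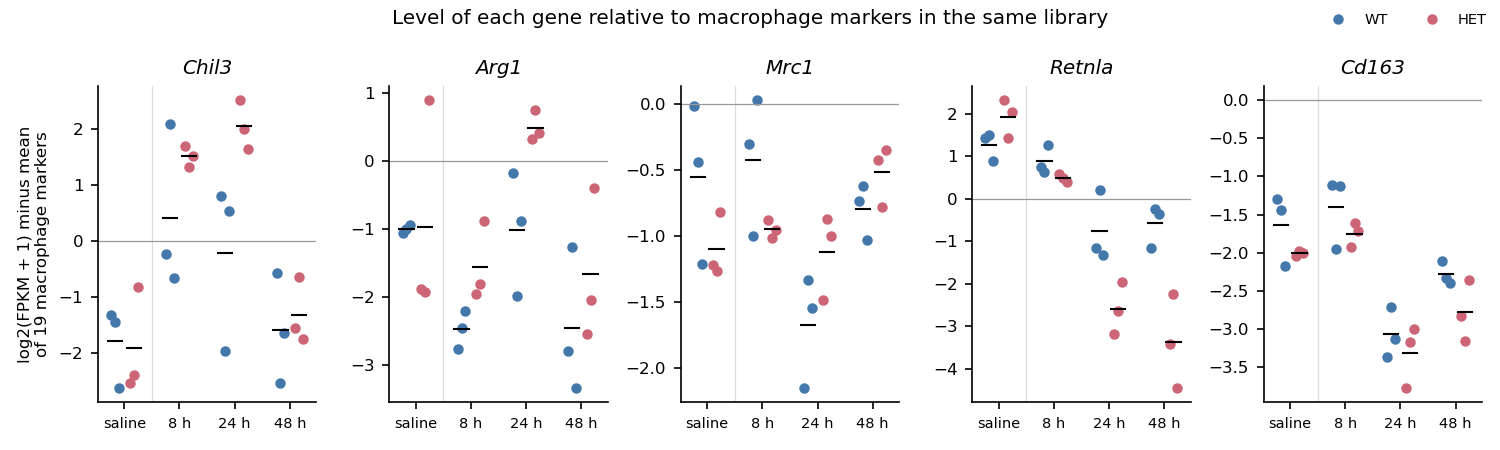
Each gene's log2(FPKM + 1) minus the mean of 19 macrophage markers in the same library, 1 point per library with group means as bars, in WT and HET. At 24 h the HET libraries lie above WT for Chil3 and Arg1 and below WT for Retnla, while Cd163 is below the marker mean in all 24 libraries.

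Markers of other cells that can carry these transcripts were measured beside them. For Retnla, 8 adipocyte markers, all detected, summed to 42.5 to 117 FPKM in WT saline, 249 to 569 in HET saline, 117 to 410 in WT 24 h, 43.0 to 135 in HET 24 h, 40.5 to 189 in WT 48 h and 17.3 to 102 in HET 48 h. The HET values lay above WT in saline, as for Retnla, and the ranges of the genotypes overlapped at 24 h and 48 h. Adipoq, which encodes adiponectin, measured 0.458, 6.26 and 3.86 FPKM in WT saline and 23.9, 79.9 and 47.1 in HET saline, and 40, 26.7 and 6.13 in WT 24 h against 2.39, 2.52 and 10.7 in HET 24 h. Of the 8, the resistin gene Retn was higher in HET saline (3.05 ± 0.75, adjusted p = 0.0401, lost in 11 of 24 fits that left out 1 library). At 24 h Fabp4, a fatty acid binding protein (-1.70 ± 0.42, adjusted p = 0.02), and the gluconeogenic enzyme Pck1 (-1.67 ± 0.35, adjusted p = 0.00873) were lower in HET. The call of Fabp4 was lost without WT 24 h replicate 1 or 2 or HET 24 h replicate 1 or 2, and that of Pck1 without HET 24 h replicate 1. Of all genes 2.36% passed between genotypes in saline and 6.5% at 24 h. Between saline and 24 h 4 of the 8 rose in WT and 6 of the 8 fell in HET, where 39.2% and 43.8% of all genes passed. Over the 24 libraries Retnla followed the mean of the adipocyte markers with r = 0.83 (Spearman rho 0.79), and r was 0.78 over the 22 libraries left without the pair farthest from the median of that mean. It was 0.78 over the 12 saline and 24 h libraries, 0.89 over the 12 from 8 h and 48 h, and 0.85 for deviations from the group means. With the macrophage markers r was -0.37 over the 24 libraries and 0.58 for deviations from the group means. The libraries of a group share their treatment and each library its scaling, so these are descriptions. The part of adipose tissue in the values of Retnla was not tested.

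B cell markers, 5 in all, also moved with Retnla across libraries (r = 0.65), and none of them passed the test between genotypes. For Chil3, 13 neutrophil markers summed to 13.7 to 184 FPKM in WT 24 h and 128 to 332 in HET 24 h, and 6 monocyte markers to 45.4 to 165 and 114 to 207. Ly6g, a defining surface marker of neutrophils, was above 0 in 3 of the 24 libraries, 1 each of HET 8 h, 24 h and 48 h. The granule genes Ngp, Camp and Mpo had means of 1.75, 0.899 and 0.284 FPKM in WT 24 h and 0.0235, 0 and 0 in HET 24 h, the other way round from the sum. Replicate 1 held most of this WT signal: Ngp was 4.99, 0.26 and 0 FPKM, Camp 1.99, 0.706 and 0, and Mpo 0.773, 0.0796 and 0. The 24 h means of Elane and Ltf were also lower in HET, and those of S100a8, S100a9, Csf3r, Cxcr2, Mmp8, Mmp9 and Retnlg higher. Chil3 followed the mean of the monocyte markers with r = 0.88 and that of the neutrophil markers with r = 0.73 over 24 libraries, and the macrophage markers with r = 0.64. Within the 8 h and 48 h libraries r with the macrophage markers was 0.11 (n = 12), and with the monocyte markers 0.72. Within the saline and 24 h libraries these were 0.89 and 0.94 (n = 12). Arg1 had r = 0.79 with the macrophage and 0.80 with the monocyte markers, Mrc1 0.88 and 0.65, and Cd163 0.73 and 0.63. Of the hepatocyte markers, measured because Arg1 is a liver enzyme of the urea cycle, Cps1 was at most 0.0529 FPKM and Alb at most 2.68. The 5 together summed to 0.906 to 62.1 FPKM, of which Ttr made up 61.1 in the highest library. Their part in the values of Arg1 was not tested. Eosinophil markers summed to at most 4.39 FPKM, and Epx was at most 0.12. The part of monocytes and neutrophils in the values of Chil3 was not tested.

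**Figure D4:**
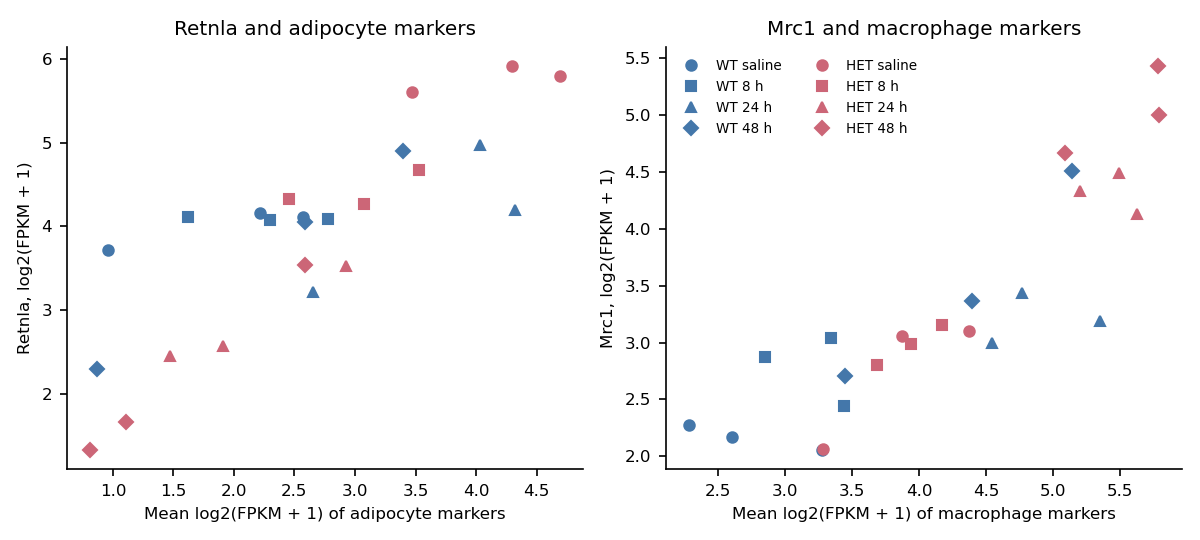
Retnla against the mean log2(FPKM + 1) of 8 adipocyte markers, and Mrc1 against that of 19 macrophage markers, 1 point per library with colour for genotype and shape for treatment and time. Retnla follows the adipocyte markers (r = 0.83) and Mrc1 the macrophage markers (r = 0.88) over 24 libraries.

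Of the 10 ligands listed, 6 were near or below detection. Il13 was above 0 in 1 library, at 0.0531 FPKM, and Il4 was at most 1.37 FPKM. Il4, Il13, Il10, Il25, Csf2 and Tslp did not reach 1 FPKM in 3 libraries, so 4 of the 10 ligands were tested. Csf1, the macrophage growth factor, was higher in HET at 24 h (19.2 against 11.3 FPKM, 0.73 ± 0.21, adjusted p = 0.0456), a call lost in 15 of 24 fits that left out 1 library. Tgfb1 was higher in HET at 48 h (13.1 against 6.2 FPKM, 1.02 ± 0.25, adjusted p = 0.0111), a call lost without WT 48 h replicate 1 or 3 or HET 48 h replicate 2 or 3. At 24 h against saline Tgfb1, Csf1, Il34 and Il33, the alarmin upstream of interleukin 13, all rose in WT. In HET all but Il34 rose. Of all genes 39.2% passed in WT and 43.8% in HET, and between genotypes 6.5% passed at 24 h and 12.2% at 48 h.

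The receptor chains and targets of that pathway were described from a list of 20 genes, of which 17 were tested. Il4ra, the chain shared by the interleukin 4 and 13 receptors, measured 13.6, 8.72 and 9.3 FPKM in WT 24 h and 34.2, 33.1 and 34.7 in HET 24 h, and 5.15, 20.2 and 8.05 in WT 48 h against 20.9, 38 and 45.8 in HET 48 h. It was higher in HET at 24 h (1.62 ± 0.33, adjusted p = 0.00638) and at 48 h (1.69 ± 0.33, adjusted p = 0.0027), and the ranges lay apart at both times. The partner chain Il13ra1 was also higher in HET at 24 h (13.2 against 7.31 FPKM, 0.80 ± 0.18, adjusted p = 0.0108) and at 48 h (6.83 against 3.97, 0.67 ± 0.18, adjusted p = 0.0176). The call of Il13ra1 was lost without WT 24 h replicate 2 or HET 24 h replicate 1 at 24 h, and without WT 48 h replicate 1 or 3 or HET 48 h replicate 2 or 3 at 48 h. These were the only 2 of the 17 that passed at either time, beside 6.5% of all genes at 24 h and 12.2% at 48 h. When only the compared groups gave the spread, neither Il4ra nor Il13ra1 passed at 48 h. In saline the chemokine Ccl24 was higher in HET (4.19 against 1.03 FPKM, 1.38 ± 0.30, adjusted p = 0.0224), a call lost without WT saline replicate 1 or 2 or HET saline replicate 2 or 3, and at 8 h none of the 17 passed. Of all genes 2.36% passed in saline and 0.218% at 8 h. The median difference of the 17 was 0.56 (saline), 0.31 (8 h), 0.12 (24 h) and 0.34 (48 h), against at most 0.03 for all genes.

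Relative to saline, at 24 h 9 of the 17 rose in WT, led by Il13ra1 (1.57 ± 0.18, adjusted p = 2.11e-06), the scavenger receptor Msr1 (3.28 ± 0.50, adjusted p = 5.39e-05), Il4ra (1.81 ± 0.33, adjusted p = 0.000258) and the nuclear receptor Pparg (1.10 ± 0.20, adjusted p = 0.000276), beside 39.2% of all genes. In HET 6 rose, led by Il13ra1 (2.04 ± 0.18), Il4ra (2.72 ± 0.33), Msr1 (2.80 ± 0.50) and Il10ra (1.16 ± 0.32), and the lectin Mgl2 fell (-1.95 ± 0.32, adjusted p = 8.2e-05), beside 43.8% of all genes. The median of the 17 was 0.83 in WT and 0.69 in HET, against 0.05 and 0.06 for all genes. Mgl2 measured 6.05, 5.54 and 10.5 FPKM in HET saline and 1.14, 1.51 and 0.723 in HET 24 h, so it went the way of Retnla and not that of Chil3 and Arg1. From 8 h to 48 h 3 of the 17 rose and 8 fell in WT, and 2 rose and 7 fell in HET, where 50% and 52% of all genes passed. Ccl24 fell in both (-2.19 ± 0.30 and -2.48 ± 0.30), as did Stat6 (-1.30 ± 0.19 and -0.93 ± 0.19). When FPKM were scaled to the total without secretory genes, 3 rose and 3 fell in WT, and 4 rose and 1 fell in HET.

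Genes of arginine and polyamine metabolism stand around Arg1, and 12 of 15 were tested. The gene that changed most between genotypes was Gatm, which makes the creatine precursor guanidinoacetate from arginine and is strongly expressed in acinar cells. It measured 64.9, 82.5 and 84.2 FPKM in WT 24 h and 15.3, 18.7 and 15.9 in HET 24 h (-2.14 ± 0.29, adjusted p = 0.000583), and was lower in HET at 48 h as well (-1.70 ± 0.29, adjusted p = 0.00108). At 48 h Azin1 (-0.62 ± 0.14), Odc1, the enzyme that turns ornithine into putrescine (-0.77 ± 0.20), and Srm, spermidine synthase (-0.95 ± 0.27), were lower and Sat1, which acetylates spermidine and spermine, higher (0.74 ± 0.21). The calls of Odc1 and Srm were lost without WT 48 h replicate 1 or 3 or HET 48 h replicate 3, that of Sat1 in 5 of 24 fits that left out 1 library, and those of Azin1, Odc1 and Srm with FPKM scaled to the total without secretory genes. In saline and at 8 h none of the 12 passed. Between genotypes the shares of all genes that passed were 2.36% (saline), 0.218% (8 h), 6.5% (24 h) and 12.2% (48 h). Over the first 24 h Sat1 rose and 8 of 12 fell in each genotype, among them Odc1 (-1.63 ± 0.20 in WT and -1.73 ± 0.20 in HET), opposite to Arg1, and Azin1, whose sign turned in HET under that scaling. The 8 include Oat, listed at 0 in all 6 of the 24 h libraries and at 5.62 to 19.1 FPKM in the others, for which no fold is given. An exact 0 in a whole group can be a failed estimate in these values, since the abundant acinar gene Cpa1 was listed at 0 in every saline and 8 h library. Of all genes 39.2% passed in WT and 43.8% in HET. Arg2, the mitochondrial arginase, was 0.433 to 4.45 FPKM. Nos2, the inducible nitric oxide synthase that competes with Arg1 for arginine in classical activation, was at most 0.224 FPKM in any library.

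Genes of classical activation were set beside the 5 as the other pole, and 9 of 14 were tested. The cytokine Il6 was higher in HET at 8 h (4.8 against 0.781 FPKM, 1.78 ± 0.28, adjusted p = 0.00782) and at 24 h (2.93 against 0.85, 1.18 ± 0.28, adjusted p = 0.0178). Tnf was higher in HET at 48 h (1.34 against 0.293 FPKM, 0.89 ± 0.22, adjusted p = 0.0116). These were the only calls among the 9 between genotypes, with none in saline. Of all genes, 12.2% passed this comparison for the 48 h groups and 6.5% for the 24 h groups. The share was 0.218% for 8 h and 2.36% for saline. The call of Il6 at 8 h was lost without WT 8 h replicate 3 or HET 8 h replicate 1 or 3, that at 24 h without WT 24 h replicate 2 or HET 24 h replicate 1 or 3, and that of Tnf without WT 48 h replicate 1 or 3 or HET 48 h replicate 3. By 24 h after the first injection 4 of 9 rose in each genotype, Irf5 and Il1b in both, close to the 39.2% (WT) and 43.8% (HET) of all genes that passed.

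Resident macrophages carry Cd163 and Mrc1 together with scavenger genes, of which 14 were tested. At 48 h 5 of 14 were higher in HET, led by F13a1 (44.6 against 17.5 FPKM, 1.51 ± 0.37, adjusted p = 0.0124), Folr2 (36.1 against 15.5, 1.34 ± 0.35, adjusted p = 0.0184), Pf4 (1.16 ± 0.32, adjusted p = 0.0219) and Hmox1 (1.32 ± 0.40, adjusted p = 0.0366). The call of F13a1 was lost without WT 48 h replicate 1 or HET 48 h replicate 3, as was that of Mrc1, and the calls of Folr2, Pf4 and Hmox1 in 3, 4 and 4 of the 24 fits. At 24 h Gas6 was lower in HET (12.4 against 21.0 FPKM, -0.71 ± 0.18, adjusted p = 0.0256), a call lost in 4 of those fits, and in saline and at 8 h none passed. Between genotypes 2.36% of all genes passed in saline, 0.218% at 8 h and 6.5% at 24 h. Between saline and 24 h 9 rose in WT, while in HET 5 rose and Gas6, Timd4 and Cd209f fell, beside 39.2% and 43.8% of all genes, and 12.2% between genotypes at 48 h. The sign of Gas6 turned with FPKM scaled to the total without secretory genes, and the call of Timd4 was lost there and without HET saline replicate 2 or HET 24 h replicate 1 or 2. Timd4, a phosphatidylserine receptor of long-lived resident macrophages, measured 2.46, 9.41 and 2.7 FPKM in HET saline and 0.389, 0.247 and 1.41 in HET 24 h. Over 24 libraries Arg1 had r = 0.73 with the mean of the 14 genes, Cd163 and Mrc1 0.70, Chil3 0.34 and Retnla 0.05. For deviations from the group means r was 0.84 for Cd163, 0.77 for Mrc1, 0.77 for Retnla, 0.56 for Arg1 and 0.09 for Chil3.

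Among paralogs of the 5 genes, Retnlg, a resistin-like gene of neutrophils, measured 12.5, 14.7 and 2.35 FPKM in WT 24 h and 24.2, 23.7 and 26.8 in HET 24 h, and did not pass the test between genotypes. Its HET 24 h libraries, all high, were those with 4.46, 4.93 and 10.5 FPKM of Retnla. Retnlb was at most 0.145 FPKM. The chitinase-like gene Chil1 was higher in HET in saline (2.72, 4.76 and 5.46 FPKM against 1.15, 0 and 0, 2.0 ± 0.36, adjusted p = 0.00672) and at 24 h (1.25 ± 0.36, adjusted p = 0.0409), the latter lost in 9 of 24 fits that left out 1 library. Mrc2, a collagen receptor related to Mrc1, was 3.5, 4.13 and 2.93 FPKM in WT 48 h and 5.39, 5.99 and 7.62 in HET 48 h (0.70 ± 0.20, adjusted p = 0.0315), a call lost without WT 48 h replicate 1 or 3 or HET 48 h replicate 2 or 3. The true chitinase Chia1 was at most 0.101 FPKM and Chit1 at most 0.937.

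The genes most like each of the 5 across the 24 libraries were taken by Pearson r of log2(FPKM + 1) among 12423 tested genes with an official symbol. For Chil3 they were the monocyte chemokine Ccl7 (r = 0.92), the neutrophil surface gene Cd177 (0.92), Gnb1, Pdpn and Gm49339. For Arg1 they were Zeb2os (0.89), Fam111a, the endotoxin receptor Tlr4, Cd300ld and Itgam, which encodes CD11b. For Mrc1 they included Nxpe5 (0.94), Rab31, Adgra2 and F13a1 (0.92), and for Cd163 Tgfbr2 (0.87), Il1r1, Ptgfrn and the inhibitory Fc receptor Fcgr2b (0.84). For Retnla they were Ltbp4 (0.88), the water channel Aqp1, Car5b, Cdo1 and Cfd, which encodes the adipocyte protein adipsin (0.85). The choice of genes moved with the measure: by Spearman rho 3 of the first 5 for Chil3, 4 for Arg1, 1 for Mrc1, 3 for Retnla and 2 for Cd163 were again among the first 5, and within the libraries of 1 guide at most 2. No gene of the 5 stood in another's first 5. Mrc1 and Cd163 had r = 0.83 with each other, Chil3 and Arg1 0.64, and Retnla had r below 0 with the other four, from -0.17 with Cd163 to -0.52 with Mrc1. Within 1 guide the sign for Retnla did not always hold. With Chil3 it had r = -0.66 over the saline and 24 h libraries and 0.16 over those from 8 h and 48 h. With Cd163 these were 0.06 and -0.20. Chil3 and Arg1 had r = 0.94 within the 12 saline and 24 h libraries and 0.25 within the 12 from 8 h and 48 h.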

How the data were processed

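Polyadenylated RNA of whole pancreas from 24 mice in 8 groups of 3 was sequenced by the authors, with an RNA integrity number of 6.6 to 9.2 per the labels' protocols. The deposited values are FPKM for 36806 genes, and CASAVA 1.8, Bowtie, Cufflinks 2.0.2, Cuffnorm and build mm9 are named per the submitters' processing notes, without their roles or order. That the values are FPKM was taken from these tools and the values themselves. FPKM keep no read numbers, so neither the depth nor a counting error could be computed.

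Genes at 1 FPKM or more in at least 3 libraries were fitted on log2(FPKM + 1) with limma 3.58.1 in R 4.3.3 (1 mean per group, 16 residual degrees of freedom, trended robust variance), with Benjamini-Hochberg adjustment over all genes tested and a threshold of 0.05. The fit was tested on simulated data. Replicates are separate libraries, and p-values measure the spread between them. A gene at 0 in a whole group while every library of another group had 100 FPKM or more was taken as missing there (22 genes, none of the 5). Alternatives were a pseudocount of 0.1, no filter, FPKM scaled to the total without 46 secretory genes, the spread of the compared groups alone, zeros kept, scaling by median ratios (chosen after seeing the data), and each library left out in turn.

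The 5 genes and all gene lists were chosen with earlier results of these data known. Beside the 5 genes, their paralogs and Nr5a2, the text names up to 4 genes per list and contrast with the smallest adjusted p among those that passed, defining markers, and the 5 genes with the highest r, of which 1 gene is not reported here. Genes named outside this rule, such as Timd4, Adipoq and S100a8, were chosen after their values were seen. Sequences are from RefSeq (GRCm38.p6), and no coordinate is taken from the expression table. For 31840 of 36806 identifiers an official symbol was found, and Scart1, a paralog of Cd163, matched no row.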

Additional observations from a re-analysis of the deposited data

Results flagged for a closer look

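For 7 genes of the lists the change over time differed between the genotypes by the limma test of that difference, with p adjusted over all genes. Between saline and 24 h the difference (HET change minus WT change) was -3.24 ± 0.59 for Fabp4 (adjusted p = 0.0103), -2.34 ± 0.50 for Pck1 (adjusted p = 0.0172) and -3.73 ± 0.82 for Plin1 (adjusted p = 0.0227), all adipocyte markers. Fabp4 went from a mean of 47.5 to 159 FPKM in WT and from 142 to 46.6 in HET, and Plin1, the coat protein of lipid droplets, from 0.569 to 5.26 in WT and from 6.17 to 0.88 in HET. The call of Fabp4 was lost only with FPKM scaled to the total without secretory genes. That of Pck1 was lost without HET 24 h replicate 1 and that of Plin1 in 6 of 24 fits that left out 1 library.

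Pparg, the nuclear receptor of adipocytes and of alternatively activated macrophages, had a difference of -1.30 ± 0.28 (adjusted p = 0.0192), with means of 0.929 and 3.12 FPKM in WT and 2.12 and 1.69 in HET. The call was lost without WT 24 h replicate 1 or 2, HET saline replicate 2 or HET 24 h replicate 2. Cd209f, a lectin of resident macrophages, had -1.78 ± 0.45 (adjusted p = 0.0407), with means of 1.42 and 3.22 FPKM in WT and 4.21 and 1.58 in HET, and lost the call in 14 of 24 fits that left out 1 library.

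Gatm fell in both genotypes, from 239 to 77.2 FPKM in WT and from 189 to 16.6 in HET (difference -1.78 ± 0.41, adjusted p = 0.0286). Its call was lost without WT saline replicate 3, WT 24 h replicate 2 or HET 24 h replicate 1 or 3. From 8 h to 48 h Azin1, the inhibitor of antizyme, had a difference of -0.86 ± 0.19 (adjusted p = 0.044), with means of 17 and 15.9 FPKM in WT and 20.2 and 10.1 in HET, and lost the call in 15 of 24 fits that left out 1 library.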

How the results depend on the processing

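No paired analysis was possible because the labels give no number that pairs animals across groups. Of the differences of the 5 genes under the 6 other settings, 399 moved by less than the spread between replicates and 21 by more. The count of the 5 genes past the threshold between genotypes at 24 h was 1 and became 0 with a pseudocount of 0.1 and with no filter. With the spread taken from the compared groups only it was again 1, but Mrc1 in place of Chil3. At 48 h it was 1 and became 0 when only the compared groups gave the spread. From saline to 24 h in WT it was 2 and became 4 both with FPKM scaled to the total without secretory genes and when only the compared groups gave the spread. From 8 h to 48 h in WT it was 0 and became 1 under that scaling. Of the 17 alternative activation genes, 1 passed in saline, 2 with a pseudocount of 0.1, and 0 under that scaling or when only the compared groups gave the spread. At 24 h 2 passed and 1 when only the compared groups gave the spread. At 48 h 2 passed, 6 under that scaling and 0 when only the compared groups gave the spread. From 8 h to 48 h 11 passed in WT and 9 in HET, against 6 and 5 under that scaling. The cause of these changes was not tested.

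With each library left out in turn, 0 to 1 of the 5 genes passed between genotypes in saline and 0 at 8 h. The range was 0 to 2 for 24 h and 0 to 3 for 48 h. Between saline and 24 h it was 1 to 3 in WT and 3 to 4 in HET, and from 8 h to 48 h 0 to 1 in WT and 2 in HET. Of the 17 alternative activation genes, 0 to 2 passed in saline and 0 at 8 h, and 1 to 4 for both 24 h and 48 h. Between saline and 24 h it was 7 to 10 in WT and 6 to 8 in HET, and from 8 h to 48 h 8 to 11 in WT and 7 to 10 in HET. Without a known depth, values under about 1 FPKM, as for Il4, Il13 and Chil4, cannot be told from absence.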

Other observations

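Monocyte and neutrophil genes differed between the genotypes in single members of their lists. Ccr2, the chemokine receptor of classical monocytes, was higher in HET at 24 h (37.9 against 13.3 FPKM, 1.48 ± 0.43, limma adjusted p = 0.0433) and at 48 h (31.6 against 11.3, 1.60 ± 0.43, adjusted p = 0.0191), the former lost in 14 and the latter in 4 of 24 fits that left out 1 library. Mmp8, the neutrophil collagenase, was higher in HET at 8 h (3.46 against 1.01 FPKM, 1.16 ± 0.17, adjusted p = 0.00356) and at 24 h (1.8 against 0.648, 0.76 ± 0.17, adjusted p = 0.0104). S100a8, which encodes a calcium-binding protein of neutrophils and monocytes, measured 72.3, 8.81 and 5.04 FPKM in WT 24 h and 146, 51.8 and 64.1 in HET 24 h. The WT 24 h library with 72.3 FPKM of S100a8, replicate 1, was also the highest of its group in Chil3 and Arg1.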
